A study of Chlamydomonas reinhardtii with 9 samples.

Results

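Chromosome 16 of the unicellular green alga Chlamydomonas reinhardtii held 9116 of the 117666 peaks in 6 deposited peak lists, 3 from PAF1-HA and 3 from SKIP-HA chromatin. Every peak on the chromosome was taken, from its first base to the last base covered by a peak, 8018645, in the files' own build. Inside it, the stretch from 3200001 to 3800000 (3.2 to 3.8 Mb) held 546 peaks. The stretch was chosen by its measured shares of SKIP-HA and PAF1-HA peaks in these same lists. The difference between the groups there, and between it and the rest of the chromosome, is therefore given as a description with no test.

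PAF1 is the subunit that gives its name to the PAF1 complex, which travels with RNA polymerase II along genes and takes part in transcript elongation and in histone modification over transcribed chromatin. SKIP is an SNW-domain protein found in spliceosomes, and in Arabidopsis thaliana it has also been described as a partner of the PAF1 complex. The title of the series also names CDKB, the plant-specific class of cyclin-dependent kinases that acts at mitosis.

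Chromatin was immunoprecipitated with an antibody to the HA epitope tag and sequenced (ChIP-seq). The PAF1-HA and SKIP-HA groups have 3 libraries each, all in strain CC5325, with no treatment, time point or culture age named in the labels. The labels write their genotypes as paf1 and skip while the design text calls them HA-tagged materials, so whether the lines also carry a mutation of the gene is not settled by the labels. Peaks from the 3 libraries of wild type are not analysed here, and no untagged level can be set beside the values. Separate cultures are not named for the replicates, nor whether a line is 1 clone, and the spread that p-values between groups measure may therefore be technical. Replicate 3 of each group has other label fields than replicates 1 and 2, and values without it are given where they differ.

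A member is an interval without a score, and each one on chromosome 16 was exactly 400 bp wide. PAF1-HA replicates 1, 2 and 3 had 1259, 1275 and 1347 peaks on the chromosome. SKIP-HA replicates had 1564, 1745 and 1926. The lists themselves differ in length, with 16252 to 17564 peaks on the 17 chromosomes in PAF1-HA and 19631 to 24615 in SKIP-HA, so levels are compared below as shares of each list. The read depth behind a list is unknown, and a missing peak means only that none was called.

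Chromosome 16 was among the peak-dense chromosomes for both proteins. Its density was 157, 159 and 168 peaks per Mb in the PAF1-HA libraries and 195, 218 and 240 in the SKIP-HA libraries. The other 16 chromosomes had 144, 151 and 156 peaks per Mb in PAF1-HA and 174, 197 and 218 in SKIP-HA. Each of the 6 libraries was denser on chromosome 16, by 1.06 to 1.12 times. Among 17 chromosomes it ranked 2 by mean PAF1-HA density and 4 by mean SKIP-HA density. The middle distance between neighbouring peak centres was 2285 to 2583 bp in PAF1-HA and 1719 to 2134 bp in SKIP-HA libraries.

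The share of a list that fell on the chromosome differed little between the proteins. It was 7.75%, 7.53% and 7.67% in PAF1-HA libraries, or 7.65% ± 0.109 on average (SD, n = 3). It was 7.97%, 7.85% and 7.82% in SKIP-HA libraries, or 7.88% ± 0.0757 on average (SD, n = 3). The groups did not overlap, and the ratio of the means was 1.03, which ranked 7 of 17 chromosomes. Most of the 17 chromosomes likewise kept their groups apart, some with PAF1-HA higher and some with SKIP-HA higher. Non-overlap therefore did not set chromosome 16 apart. The lean of the chromosome as a whole was thus small beside that of the stretch.

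The stretch carried the lean to SKIP-HA. PAF1-HA libraries had 55, 60 and 65 peaks there, on average 60.0 ± 5.0 (SD, n = 3). In SKIP-HA there were 109, 124 and 133, on average 122 ± 12.1 (SD, n = 3). As a share of the list this was 0.338%, 0.354% and 0.370% in PAF1-HA against 0.555%, 0.558% and 0.540% in SKIP-HA. The highest PAF1-HA library lay well under the lowest SKIP-HA library. The ratio of the mean shares was 1.56, and it was 1.61 from replicates 1 and 2 and 1.46 from replicate 3. On the rest of the chromosome the shares were 7.41%, 7.18% and 7.30% in PAF1-HA and 7.41%, 7.29% and 7.28% in SKIP-HA. There the groups overlapped and the ratio was 1.00.

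**Figure D1:**
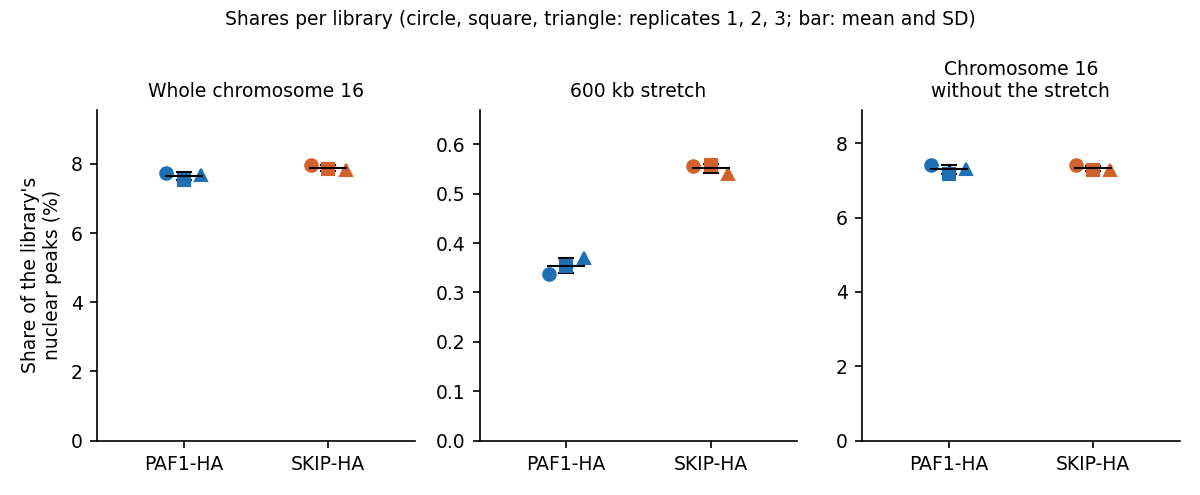
Share of each library's peaks on the 17 chromosomes (percent, vertical axes) that fell on chromosome 16, in the stretch from 3.2 to 3.8 Mb and on the rest of the chromosome (3 panels), with 1 marker per library and bars for the mean and SD of each group. The SKIP-HA points lie between 0.540% and 0.558% in the stretch, above the PAF1-HA points at 0.338% to 0.370%, while the groups overlap on the rest.

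Averaged over its 600 kb and seen against its own chromosome, the stretch was poor in PAF1-HA peaks rather than rich in SKIP-HA peaks. PAF1-HA density in the stretch was 91.7, 100 and 108 peaks per Mb, against 162, 164 and 173 on the rest. SKIP-HA density was 182, 207 and 222 peaks per Mb in the stretch and 196, 219 and 242 on the rest. The stretch thus had 0.565 to 0.627 times the density of the rest in PAF1-HA, and 0.917 to 0.946 times in SKIP-HA. These averages include a near-empty middle. In the 100 kb windows from 3200001, 3600001 and 3700001, SKIP-HA means were 34.7, 36.3 and 31.3 peaks and PAF1-HA means 17, 18.7 and 14. The rest averaged 219 SKIP-HA and 166 PAF1-HA peaks per Mb. SKIP-HA density in these windows was thus above that of the rest, with PAF1-HA near it. Both proteins lay below the rest in the windows between them. The stretch held 4.37%, 4.71% and 4.83% of the chromosome's PAF1-HA peaks and 6.97%, 7.11% and 6.91% of its SKIP-HA peaks, on 7.48% of its length. The 95% Wilson intervals, which cover counting error only, ran from 3.37% to 6.10% over the PAF1-HA libraries and from 5.81% to 8.41% over the SKIP-HA libraries, and intervals of libraries of different groups overlapped in part.

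Ranked among all 1027 stretches of 600 kb that start every 100 kb on the 17 chromosomes, many of which overlap, 3.2 to 3.8 Mb had the highest ratio of shares. It was chosen by these same shares, so its place in the order is no separate result. The highest ratio on another chromosome was that of 7000001 to 7600000 of chromosome 1, at 1.44. Elsewhere on chromosome 16, the stretch from 5000001 to 5600000 leaned most to SKIP-HA, at a ratio of 1.27 and rank 26. At the other end, 1400001 to 2000000 had a ratio of 0.802 and rank 1024, so the same chromosome also held a stretch near the PAF1-HA end of the order.

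**Figure D2:**
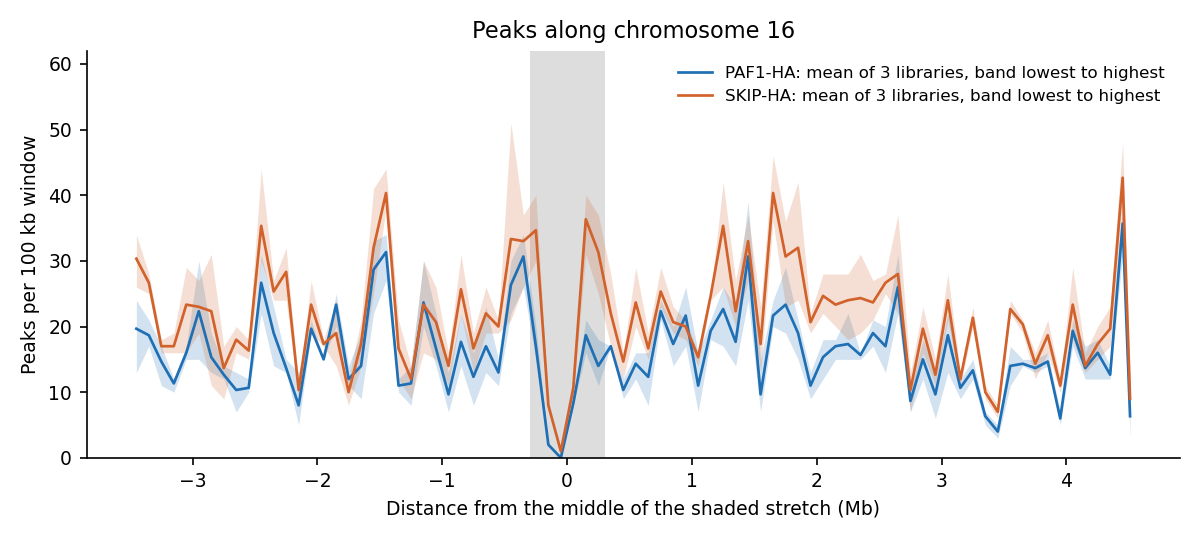
Mean peaks per 100 kb window (vertical axis) along chromosome 16 (distance in Mb from the middle of the stretch from 3.2 to 3.8 Mb, horizontal axis). Lines are means of 3 libraries, coloured bands run from the lowest to the highest library, and the stretch is shaded grey. Both profiles rise and fall at most of the same places, and in the stretch they part on either side of a gap that both share.

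The density profiles of the proteins ran together over most of the chromosome. Over its 81 windows of 100 kb the mean counts of PAF1-HA and SKIP-HA peaks had a Pearson r of 0.853, and over the 75 fitted windows outside the stretch r was 0.871. These values describe windows that share their libraries, and chromosome 16 ranked 15 of 17 by r. The densest window was 7900001 to 8000000, next to the right end, with 39, 31 and 37 PAF1-HA and 36, 44 and 48 SKIP-HA peaks. The window from 2000001 to 2100000 followed with 34, 27 and 33 against 38, 39 and 44. The windows from 3100001 to 3200000, at the very border of the stretch, and from 4900001 to 5000000 tied next, each with means of 30.7 PAF1-HA and 33.0 SKIP-HA peaks. The windows with fewest peaks outside the stretch were 6900001 to 7000000, with means of 4.0 and 7.0, the short last window from 8000001, with 6.33 and 9.0, and 6800001 to 6900000, with 6.33 and 10.

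Window by window, the lean inside the stretch was not even. Ratios here are log2 of SKIP-HA over PAF1-HA share of the list, with 0.5 peaks added to each window. From 3200001 to 3300000 PAF1-HA libraries had 15, 20 and 16 peaks and SKIP-HA libraries 34, 30 and 40, a log2 ratio of 0.62. From 3300001 to 3400000 there were 2, 2 and 2 against 8, 8 and 8, a log2 ratio of 1.38 that rests on few peaks. From 3400001 to 3500000 there was no PAF1-HA peak and 1 SKIP-HA peak in each library, too few for a ratio. Each SKIP-HA count was above each PAF1-HA count in these windows. SKIP-HA lists are 1.31 times as long on average, so higher counts alone show no lean.

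The right side of the stretch opened without a lean and then regained it. From 3500001 to 3600000 the counts were 9, 8 and 8 in PAF1-HA and 10, 10 and 12 in SKIP-HA, a log2 ratio of -0.05. From 3600001 to 3700000 they were 16, 19 and 21 against 31, 38 and 40, a log2 ratio of 0.56. From 3700001 to 3800000 they were 13, 11 and 18 against 25, 37 and 32, a log2 ratio of 0.76. In 4 of the 5 windows with a ratio, each SKIP-HA share was above each PAF1-HA share. This held in 9.72% of windows on the other 16 chromosomes. The windows of the stretch were chosen by these same shares, so the count describes them and is no test.

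The windows just outside the borders did not lean to SKIP-HA. The window from 3100001 to 3200000 had 32, 26 and 34 PAF1-HA and 36, 26 and 37 SKIP-HA peaks, a log2 ratio of -0.29. The window from 3800001 to 3900000 had 17, 17 and 17 against 17, 21 and 28, a log2 ratio of -0.05. Just inside, the values were 0.62 on the left and 0.76 on the right. Moving each border out by 100 kb accordingly brought the ratio of shares from 1.56 to 1.26.

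**Figure D3:**
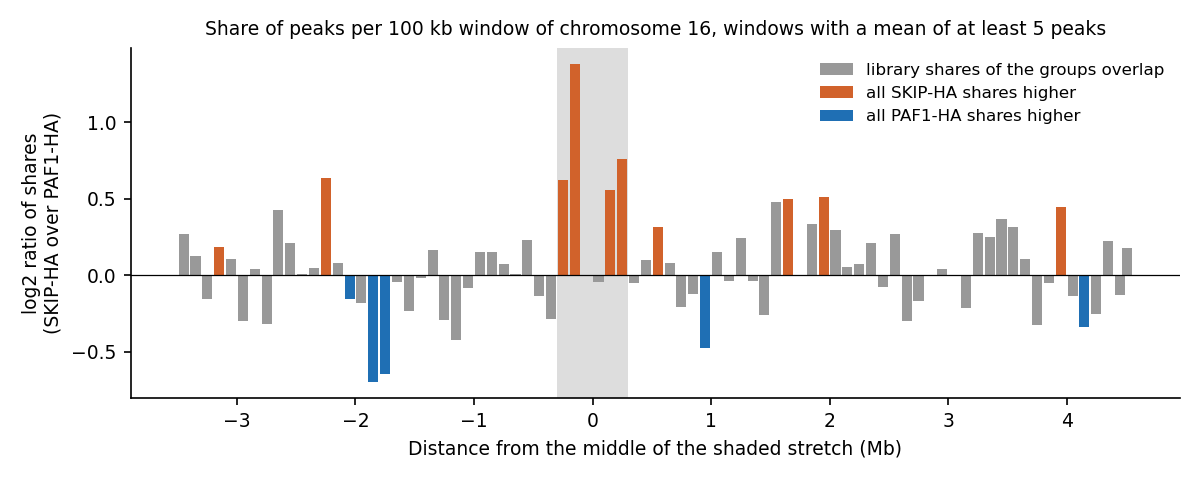
Log2 of SKIP-HA over PAF1-HA share (bars, vertical axis) in 100 kb windows of chromosome 16 averaging at least 5 peaks, by distance in Mb from the middle of the stretch, which is shaded. Orange and blue bars mark windows where all SKIP-HA or all PAF1-HA shares are higher. Windows of the stretch reach 1.38, while windows outside it lie between -0.70 and 0.63.

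Outside the stretch, no window of chromosome 16 passed the test in either direction. In limma across all 1068 windows averaging at least 5 peaks, with Benjamini-Hochberg adjustment, 0 of 75 windows outside the stretch had an adjusted p under 0.05 for SKIP-HA, and 0 for PAF1-HA. On all 17 chromosomes 0.0936% of windows were called for SKIP-HA and 0.0936% for PAF1-HA, 1 window each. At an unadjusted p under 0.05, 3 of the 75 windows favoured SKIP-HA and 4 favoured PAF1-HA. Each SKIP-HA share was above each PAF1-HA share in 6 windows, or 8.0%, where the other 16 chromosomes had 9.72%. The reverse held in 5 windows, or 6.67%, where the others had 10.3%. Both counts lay below the background. The median log2 ratio was 0.0406 outside the stretch and 0.0045 on the other 16 chromosomes.

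The window nearest to a lean to SKIP-HA outside the stretch was 1200001 to 1300000. PAF1-HA libraries had 15, 13 and 13 peaks there and SKIP-HA libraries 24, 32 and 29, with no overlap. The log2 ratio was 0.63 (SE 0.200) and the limma adjusted p was 0.0703, short of the threshold. Of the next windows, 3 lay between 5.0 and 5.5 Mb, where the window from 5200001 to 5300000 had no lean, with 22, 29 and 19 against 23, 33 and 36 peaks. From 5100001 to 5200000 the counts were 20, 21 and 24 against 36, 46 and 39, with a log2 ratio of 0.49 (SE 0.162) and a limma adjusted p of 0.0794. The window from 5400001 to 5500000 had a log2 ratio of 0.51 and that from 5000001 to 5100000 one of 0.48, with limma adjusted p of 0.275 and 0.381. The window from 7400001 to 7500000 completed the highest 5 at 0.45, with a limma adjusted p of 0.518.

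At the other end stood adjoining windows between 1.6 and 1.8 Mb. From 1600001 to 1700000 PAF1-HA libraries had 25, 20 and 25 peaks and SKIP-HA libraries 14, 19 and 24, although the SKIP-HA lists are longer. The log2 ratio was -0.70 (SE 0.196) with a limma adjusted p of 0.0533, just short of the threshold. It fell below 0.05 under 3 of the alternatives, among them 0.0423 for the 200 kb window from 1600001 to 1800000. From 1700001 to 1800000 the counts were 11, 11 and 14 against 8, 12 and 10, a log2 ratio of -0.64 with a limma adjusted p of 0.205. The windows from 4400001, 2300001 and 7600001 followed at -0.48, -0.43 and -0.34, with limma adjusted p of 0.205, 0.273 and 0.551.

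Adjoining windows whose shares did not overlap in the same direction formed short runs. Chromosome 16 had 2 runs higher in SKIP-HA, both in the stretch, from 3200001 to 3400000 and from 3600001 to 3800000. It had 1 run higher in PAF1-HA, from 1600001 to 1800000. The other 16 chromosomes together had 8 and 6. No run on any chromosome was longer than 2 windows.

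Within the stretch, blocks of peaks flank a near-empty middle. From 3.2 to 3.3 Mb the means were 17 ± 2.65 PAF1-HA and 34.7 ± 5.03 SKIP-HA peaks (SD, n = 3 each). From 3.3 to 3.6 Mb they were 10.3 ± 0.577 and 19.7 ± 1.2, and from 3.6 to 3.8 Mb 32.7 ± 5.51 and 67.7 ± 10.2. These are counts, on SKIP-HA lists that are 1.31 times as long on average. Of 60 bins of 10 kb, 21 held no peak of any library. By share of the list, SKIP-HA was higher in 31 bins and PAF1-HA in 8. The SKIP-HA libraries had 366 peaks in the stretch, where the mean PAF1-HA share on lists of their length would give 236.

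The bins with the greatest excess of SKIP-HA counts show where these peaks lay. The bin from 3620001 to 3630000 had 0, 1 and 2 PAF1-HA peaks against 6, 7 and 6 SKIP-HA peaks. The bin from 3290001 to 3300000 had 2, 4 and 0 against 8, 7 and 7. The bin from 3700001 to 3710000 had 1, 1 and 1 against 4, 8 and 3. These 3 bins were picked for their difference, on counts not scaled to list length. In the opposite direction, the bin from 3280001 to 3290000 had 3, 2 and 4 PAF1-HA peaks against 1, 2 and 2 SKIP-HA peaks, where the groups touched.

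**Figure D4:**
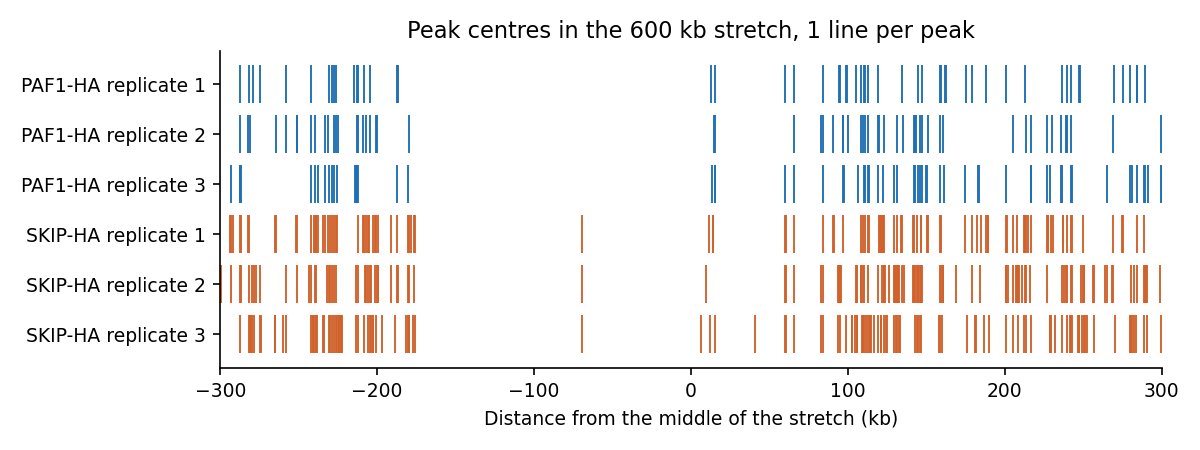
Peak centres of each of the 6 libraries (rows, 1 line per peak) across the stretch from 3.2 to 3.8 Mb, by distance from its middle in kb. Peaks form blocks on both sides of a near-empty middle. Between the SKIP-HA edges of this middle each SKIP-HA library has 1 peak, at the same place, and no PAF1-HA library has any.

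The middle of the stretch held the longest peak-free sequence of the chromosome. No library had a peak from 3324618 to 3430260, a length of 105643 bp that ranked 18 on the 17 chromosomes, nor from 3430755 to 3506372, a length of 75618 bp that ranked 31. For PAF1-HA alone nothing interrupted the gap, which ran from 3320325 to 3512560 and, at 192236 bp, ranked 7 among gaps of the merged PAF1-HA lists. The distance from the last peak before the gap to the first after it was 198893, 194322 and 193389 bp in PAF1-HA and 186692, 185217 and 181780 bp in SKIP-HA libraries. SKIP-HA peaks thus reached further in on both sides, with the edges nearest the middle at 3324617 and 3506373. SKIP-HA libraries also had more peaks in the stretch, and the part of peak number in this difference was not tested. The next longest gaps lay elsewhere, at 6899975 to 6952634 (52660 bp), 2926692 to 2968039 (41348 bp) and 6791009 to 6830326 (39318 bp).

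Between the adjoining gaps lay a lone SKIP-HA region, from 3430261 to 3430754. The 3 SKIP-HA libraries placed its peak centres at 3430487, 3430461 and 3430555, within 94 bp, and no PAF1-HA library had a peak there. It was the only region on the 17 chromosomes with at least 50 kb free of peaks on each side. It was picked out after its position had been seen.

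Peaks of the 6 libraries were merged where they overlapped by at least 1 bp, which gave 2781 regions on chromosome 16, 187 of them in the stretch. Regions with a peak in all 3 SKIP-HA libraries and in no PAF1-HA library numbered 72, or 2.59%, near the 2.48% of the other 16 chromosomes. The reverse, 3 PAF1-HA libraries and no SKIP-HA library, numbered 16, or 0.575%, against 0.855% there. In the stretch the SKIP-HA count was 3, or 1.6%, with a 95% Wilson interval of 0.547% to 4.61%. The PAF1-HA count was 0, with an upper bound of 2.01%. Both intervals, which cover counting error only, hold the background share. With 187 regions these counts are small, and they describe a stretch chosen by its peaks and are no test.

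What the stretch held more of were SKIP-HA regions seen in a single library. Of its 187 regions, 67, or 35.8%, had a peak in just 1 SKIP-HA library and no PAF1-HA library, against 23.9% on the rest of the chromosome and 24.9% on the other 16. Regions with any SKIP-HA but no PAF1-HA peak made up 46.5% in the stretch, 34.0% on the rest and 35.3% elsewhere. Regions with any PAF1-HA but no SKIP-HA peak made up 7.49%, 13.1% and 14.4%. Regions of all 6 libraries were 12 of 187, or 6.42%, in the stretch and 247 of 2594, or 9.52%, on the rest, with 8.10% elsewhere. Peaks chose the stretch, so these shares describe it and are not tested.

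The SKIP-HA regions of the stretch with 3 libraries had sharp positions where they held 1 peak per library. In 3269683 to 3270090 the 3 centres lay at 3269888, 3269891 and 3269883, within 8 bp of each other. The lone region in the gap, given above, had centres within 94 bp. The remaining one, 3749647 to 3750728, was wider and held 5 peaks. On the rest of the chromosome the tightest SKIP-HA region was 7503381 to 7503785, with centres within 5 bp, and the other 4 of the closest 5, starting at 2492946, 1266837, 6899540 and 6040099, had centres within 16 to 36 bp. The region at 6899540 bordered the third longest gap of the chromosome on its left.

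Regions of all 3 PAF1-HA libraries without SKIP-HA, of which the stretch held none, included the tightest regions named. In 5921357 to 5921758 the 3 PAF1-HA centres were 5921559, 5921558 and 5921557, within 2 bp. In 7917464 to 7917866 they lay within 3 bp, in the densest window of the chromosome. The next, 2068543 to 2068956, had centres within 14 bp and also lay in a peak-dense window. The regions 6834032 to 6834500 and 3084840 to 3085313 had centres within 69 and 74 bp.

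Of regions with 1 peak in each of the 6 libraries, the tightest had PAF1-HA and SKIP-HA centres within 12 to 24 bp of each other. In the stretch the tightest was 3612618 to 3613032, where the PAF1-HA centres were 3612823, 3612822 and 3612830 and the SKIP-HA centres 3612818, 3612833 and 3612828, 15 bp in all. In 3565245 to 3565662 and 3583791 to 3584214 they spanned 18 and 24 bp. The last 2 fall in the window without a lean. The remaining 2 named in the stretch, 3272380 to 3272825 and 3257339 to 3257922, lie to the left of the gap and spanned 46 and 184 bp. On the rest of the chromosome the tightest was 4688565 to 4688976, with 12 bp, and 1083156 to 1083568 and 1082478 to 1082893 stood next to each other with 13 and 16 bp. The median span was 24 bp over 5 such regions in the stretch, 133 bp over 111 on the rest and 77 bp over 1238 elsewhere, and the low number in the stretch limits what its median can show.

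Consensus regions, called in 2 or 3 of the 3 libraries of a protein, showed how the sets lay on each other. Chromosome 16 had 1008 PAF1-HA consensus regions, of which 69.5% overlapped a SKIP-HA one, against 65.5% on the other 16 chromosomes. It had 1329 SKIP-HA consensus regions, of which 53.8% overlapped a PAF1-HA one, against 51.5%. In the stretch 39 of 43 PAF1-HA regions, or 90.7%, overlapped SKIP-HA, with a 95% Wilson interval of 78.4% to 96.3%. The share on the rest was 68.6%. From the other side, 39 of 83 SKIP-HA regions in the stretch, or 47.0%, overlapped PAF1-HA, against 54.3% on the rest. The 95% Wilson interval of that 47.0% ran from 36.6% to 57.6% and held the share on the rest. Nearly every PAF1-HA consensus region of the stretch therefore lay on a SKIP-HA one. SKIP-HA ones met PAF1-HA less often than on the rest, by a difference within the counting error of that interval. Counted by single peaks, the share met by PAF1-HA was lower in the stretch in each SKIP-HA library, as given further below. The stretch was chosen by its shares of peaks, so these overlaps describe it and are not tested.

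Stitching consensus regions of a protein at most 1 kb apart gave domains, here runs of 2 or more regions. PAF1-HA had 185 domains on chromosome 16, of which 63.8% overlapped a SKIP-HA domain, against 58.9% on the other 16 chromosomes. SKIP-HA had 273, of which 42.1% overlapped a PAF1-HA domain, against 42.4%. Domains covered 5.12% of the chromosome in PAF1-HA and 8.17% in SKIP-HA, against 4.67% and 6.64% elsewhere. Of SKIP-HA domains over 5 kb on all 17 chromosomes, 17 of 129, or 13.2%, lay on chromosome 16, which has 7.16% of the spanned length. For PAF1-HA it was 5 of 83, or 6.02%. The chromosome was also denser in SKIP-HA domains of any length, with 34.0 per Mb against 29.1 on the other 16. Of the 17 long SKIP-HA domains, 3 lay in the stretch, which was chosen by its peaks.

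In the stretch the domains of the proteins differed in number by more than their regions did. There were 5 PAF1-HA domains and 19 SKIP-HA domains, that is 8.33 and 31.7 per Mb, where the rest of the chromosome had 24.3 and 34.2. Of the 19 SKIP-HA domains 3, or 15.8%, overlapped a PAF1-HA domain, against 44.1% on the rest. With just 5 PAF1-HA domains there, few SKIP-HA domains could meet one. A SKIP-HA domain that met none did not always lack PAF1-HA peaks. The domain 3286454 to 3288035 held 1, 2 and 2 SKIP-HA against 2, 2 and 2 PAF1-HA peaks. The domain 3612618 to 3614001 held 2, 1 and 2 against 1, 1 and 2. Others held few PAF1-HA peaks or none, as given below. Of 5 PAF1-HA domains 4 overlapped SKIP-HA, and the exception was 3735421 to 3736799. PAF1-HA domains of the stretch were thus few and mostly lay on SKIP-HA domains.

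SKIP-HA domains were drawn from SKIP-HA regions, where SKIP-HA counts are high by construction, so the counts beside them are a description. The longest SKIP-HA domain in the stretch was 3641300 to 3647155, 5856 bp long. It held 5, 9 and 5 SKIP-HA and 2, 6 and 5 PAF1-HA peaks, and 68.9% of it was covered by PAF1-HA domains. The domain 3268831 to 3274654 was 5824 bp long with 5, 5 and 6 against 4, 2 and 3 peaks, and the longest PAF1-HA domain of the stretch, 3271162 to 3275163 at 4002 bp, lay over most of it. By contrast, 3295268 to 3300818 was 5551 bp long with 4, 6 and 5 SKIP-HA peaks and 0, 2 and 0 PAF1-HA peaks, and no PAF1-HA domain touched it. Shorter SKIP-HA domains of the same kind were 3620251 to 3623689, with 5, 4 and 3 against 0, 1 and 1 peaks, and 3748630 to 3750728, with 1, 4 and 2 against none. Domains without a PAF1-HA peak of any library also lay at the gap's left edge, from 3323573 to 3324617, and at 3707632 to 3708492.

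The longest domains of the chromosome lay outside the stretch. The SKIP-HA domain from 998934 to 1008940 spanned 10007 bp and 9 consensus regions, and ranked 4 among SKIP-HA domains of the 17 chromosomes. It held 8, 8 and 10 SKIP-HA and 6, 8 and 3 PAF1-HA peaks, so PAF1-HA was called there too, but just 17.9% of it was covered by a PAF1-HA domain. The next was 4674019 to 4683423, 9405 bp long, with 10, 10 and 4 against 3, 8 and 3 peaks. Further ones were 5383351 to 5391236 (7886 bp), 5507168 to 5513672 (6505 bp) and 6025264 to 6031587 (6324 bp). Of these, 5507168 to 5513672 had no PAF1-HA domain and held 6, 5 and 4 SKIP-HA against 1, 1 and 2 PAF1-HA peaks. Here too the SKIP-HA counts are high by construction.

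The longest PAF1-HA domain was 545603 to 552007, 6405 bp long, with 8, 4 and 8 PAF1-HA and 3, 5 and 6 SKIP-HA peaks. The domain 1625749 to 1631969, 6221 bp long with 7 consensus regions, lay in the window with the lowest log2 ratio of the chromosome. It held 6, 8 and 7 PAF1-HA and 3, 5 and 5 SKIP-HA peaks, and it was drawn from PAF1-HA regions, where PAF1-HA counts are high by construction. The remaining 3 of the longest 5 were 7018781 to 7024222 (5442 bp), 1857708 to 1863112 (5405 bp) and 586476 to 591576 (5101 bp). Each of the 5 overlapped a SKIP-HA domain, which covered 41.8% to 63.1% of it.

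How closely peaks stand and how well libraries meet each other are other measures than the shares that chose the stretch. Peaks of the stretch are still counted in the values of whole chromosome 16, so these are not free of that choice. The share of peaks with another peak centre of the same library within 1 kb was 48.7%, 49.1% and 49.0% on chromosome 16 in PAF1-HA, and 52.4%, 54.3% and 54.5% in SKIP-HA. On the other 16 chromosomes it was 49.6%, 50.5% and 50.5%, and 50.8%, 53.0% and 55.7%. The mean difference within libraries was -0.341 percentage points (SD 1.42, n = 6), with 2 of 6 libraries higher on chromosome 16. An exact two-sided sign-change permutation test gave p = 0.625, or 0.833 adjusted over the 4 tests of this kind. The mean joins groups that differed in direction. The 3 PAF1-HA libraries were each lower on chromosome 16, by a mean difference of -1.26 points (SD 0.304), while 2 of 3 SKIP-HA libraries were higher, with a mean of 0.578 points (SD 1.55). The difference between the groups was not tested. Part of it came from the stretch. Outside it the PAF1-HA mean was 49.6%, against 50.2% on the other 16 chromosomes, and the SKIP-HA mean 53.1% against 53.2%.

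How often a peak was met by a peak of another library of the same protein was compared in the same way. On chromosome 16 the share was 74.2%, 71.4% and 69.2% in PAF1-HA, against 72.6%, 70.4% and 68.6% on the other 16 chromosomes. It was 77.0%, 72.8% and 67.3% in SKIP-HA, against 75.4%, 70.3% and 66.1%. The difference was 1.40 points (SD 0.639, n = 6) and positive in 6 of 6 libraries, with an exact permutation p of 0.03125, the smallest that 6 libraries allow. Adjusted over 4 tests the exact p was 0.125, so the result failed the correction. Libraries of a protein are met by each other, so the 6 differences are not independent, while the exact p treats them as if they were. By the mean share over all libraries chromosome 16 ranked 3 of 17, after chromosomes 15 and 11, which ranked 17 and 16 by mean PAF1-HA density. Chromosome 14, the densest, ranked 9 by the share. Chromosome 16 is also denser in peaks than the others together, and the part of density in this share was not tested.

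Between the proteins, on chromosome 16 outside the stretch, 49.4%, 50% and 49.2% of PAF1-HA peaks had a neighbour within 1 kb, against 51.8%, 53.4% and 54.1% of SKIP-HA peaks. The groups did not overlap, with a difference of 3.55 points, and the exact permutation p was 0.1, the smallest that 3 against 3 libraries allow, or 0.2 adjusted. SKIP-HA lists are longer, and list length and protein cannot be told apart here. The share met by another library of the same protein was 74.9%, 71.9% and 69.5% against 77.7%, 72.4% and 67.7%, where the groups overlapped. That difference was 0.490 points with an exact permutation p of 0.9, adjusted 0.9. Here too the shares of libraries of the same protein depend on each other.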

How the data were processed

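Each deposited file is the peak list of 1 library, and its unit is a genomic interval (chromosome, start and end of a peak), without any score or strand, as the deposited columns show. Bowtie2 and HOMER are named for 9 samples and MACS3 for 4, per the submitters' processing notes, which give no versions. What build, threshold and control were used is not given in the sources used here, so no sequence or gene was assigned to a peak. Coordinates are 1-based. The depth per sample is unknown, and the number of peaks sets the precision.

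Peaks were assigned to windows by centre and merged at 1 bp of overlap in Python 3.11.15 (numpy 2.4.6, pandas 2.3.3, scipy 1.17.1, matplotlib 3.10.9). Windows of 100 kb with a mean of at least 5 peaks entered a limma fit (3.58.1, R 4.3.3) on log2 shares with 0.5 peaks added, with a threshold of 0.05 after Benjamini-Hochberg adjustment over 17 chromosomes. The variance prior follows the mean. This setting was taken after a run without it had been seen, as in earlier processing of these data, and the other stands as an alternative chosen after seeing the data. For other values, exact permutation tests (two-sided) were used. The window script was tested on simulated data.

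Named regions follow a rule: the windows of the stretch and beside it, the 5 highest and 5 lowest ratios and the 3 densest and 3 emptiest windows outside it, up to 5 tightest regions per kind inside and outside, the 5 longest domains per protein, the longest per protein in the stretch, and the 5 longest gaps. The 10 kb bins, the ranking of 600 kb stretches, the edges of the gap, the lone region in it, the region with 5 peaks and the shorter domains of the stretch were chosen after their values were seen. The members, the stretch and these rules were chosen with earlier results of these data known. Alternatives covered window size, low windows, added peaks, replicate block, libraries left out, neighbour distance, overlap, borders, consensus, merging and stitching.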

Additional observations from a re-analysis of the deposited data

Results flagged for a closer look

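In the stretch from 3.2 to 3.8 Mb the spacing of peaks moved in opposite directions in the groups, relative to the rest of chromosome 16, and the difference between the groups was not tested. The share of peaks with a neighbour within 1 kb was 32.7%, 30.0% and 44.6% in PAF1-HA and 60.6%, 65.3% and 60.2% in SKIP-HA libraries. The mean difference from the rest was -13.8 percentage points in PAF1-HA, from -20.0 to -4.60, and 8.89 points in SKIP-HA, from 6.05 to 11.9 (n = 3 each). Each PAF1-HA library was lower and each SKIP-HA library higher in the stretch.

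The share of peaks that a peak of the other protein met also moved in opposite directions, and this was not tested either. In PAF1-HA it was 89.1%, 93.3% and 86.2% in the stretch against 86.0%, 86.1% and 83.8% on the rest, a mean difference of 4.25 points. In SKIP-HA it was 67.9%, 60.5% and 51.9% against 71.8%, 70.4% and 67.5%, a mean difference of -9.81 points. The stretch was chosen on the share of peaks in these lists, so density there differs between the groups, and the part of density in both results was not tested.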

How the results depend on the processing

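Of 104 values recomputed under alternatives, 77 kept their direction and side of the threshold (for a test) or moved by no more than 1 SD (ratios), 1.5 times (counts) or the 95% Wilson interval (overlap shares), 21 moved further and 6 reversed. The count of windows outside the stretch called higher in SKIP-HA was 0 under every alternative run. The count higher in PAF1-HA became 1 with 200 kb windows, with 1 peak added and with a replicate block. Same-numbered libraries deviated together with r of -0.0324 to 0.0025 over 1068 windows, so the numbers were not taken to pair the samples; on all 17 chromosomes the replicate block called 12 windows for SKIP-HA and 14 for PAF1-HA, against 1 and 1 without it. Genome-wide counts also moved when a library was left out, from 0 to 10 for SKIP-HA and 0 to 7 for PAF1-HA, highest without PAF1-HA replicate 3, and the variance prior without a trend called 5 and 1. The difference in neighbours between chromosome 16 and the others reversed to 0.605 points with neighbours within 2 kb and to 0.160 with replicates 1 and 2 only. The difference between proteins in peaks met by the same protein outside the stretch reversed to -0.00567 points at 200 bp of overlap, and ran from -19.7 to 20.8 when libraries were left out, lower without SKIP-HA and higher without PAF1-HA replicates, since fewer libraries are then left to meet. The ratio of shares in the stretch was 1.48 with borders 100 kb narrower and 1.26 wider. Consensus regions in 3 of 3 libraries were 412 (PAF1-HA) and 567 (SKIP-HA), of which 53.9% and 40.2% were overlapped, and at 200 bp of overlap the shares were 65.3% and 50.04%. With each library left out, regions of PAF1-HA only numbered 27 to 47 and of SKIP-HA only 98 to 175, by construction, as fewer libraries define them. The cause of the other changes was not tested. Unknown read depth limits each statement on missing peaks.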
